A study of Mus musculus with 9 samples.

Results

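The genes that make cholesterol and fatty acids were examined as a group of 34 named genes of the sterol pathway, the SREBP system, fatty acid synthesis, and sterol transport. They were listed by name, with no threshold on their values but with earlier results of these data known. Shares of the list set beside shares of all genes therefore describe this list only. Each of the 34 matched a single row among the 50686 genes of the deposited count table. RNA-Seq was performed on 3 groups with n = 3 libraries each. The first was untreated control cells of MC3T3-E1, a mouse osteoblast line, and the second was MC3T3-E1 cells treated with 10 μM SB216763, which blocks the kinase GSK3, for 14 days. The third was untreated mouse pulmonary endothelial cells (ECs), which the study isolated by FACS. The time in culture of the control osteoblasts is not given in the sources used here, and neither are the sex and age of the mice that gave the ECs. All MC3T3-E1 libraries come from the same line, and nothing in the labels says that replicates were separate cultures or animals, so the p-values measure the spread between these libraries, which may be technical. The protocol text attached to every library, controls and ECs included, names the SB216763 treatment, so the groups were taken from the titles.

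Cholesterol is built from acetyl-CoA in a long chain of enzymes. The first part of the chain makes mevalonate and turns it into isoprenoid units, and the second joins these units into squalene, closes the ring, and trims the sterol to cholesterol. Most of these genes are switched on by SREBP2, a transcription factor held in the endoplasmic reticulum by the SCAP and INSIG proteins when sterols are plentiful and released when sterols run low. SREBP1 drives the genes of fatty acid synthesis and desaturation, and the oxysterol receptors LXR drive export genes such as Abca1.

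The libraries held between 30990107 and 68946333 counts, and 3 counts, taken as the smallest level this depth can show, corresponded to 0.0435 to 0.0968 CPM when scaled to the library total alone. This limit covers counting error only. The CPM of genes and of sums below are normalized by TMM, which multiplies each library total by a factor, here between 0.921 and 1.08. The biological coefficient of variation, 1 value shared by the 3 groups, was 0.0554, and no replicates were near-identical. The spread between replicates was unequal. The chi-square per gene between pairs of replicates, which also grows with depth, was 27.2 to 104 in the controls. It was 3.24 to 27.4 after SB216763 and 2.85 to 4.57 in the ECs. Summed markers matched the labels. The 7 endothelial markers summed to between 6731 and 6882 CPM in the ECs and to between 2.78 and 3.68 CPM in the osteoblast libraries, and the 6 osteoblast markers summed to 43916 to 59344 CPM in control libraries, 8066 to 8338 CPM after SB216763, and 45.1 to 64.5 CPM in ECs. The 6 adipocyte markers summed to at most 0.172 CPM in the osteoblast libraries and 2.71 CPM in the ECs, and Adipoq was at 0 in every EC library. The 5 lung epithelial markers summed to at most 0.278 CPM in any library, and Epcam was at 0 in all 9. The 5 leukocyte markers summed to at most 2.18 CPM in the osteoblasts and 48.9 CPM in the ECs, where Cd68 alone had a mean of 46.6 CPM and Ptprc 0.0915 CPM. The 5 smooth muscle markers, nearly all of it Acta2, summed to 2835 to 3027 CPM in control libraries, 144 to 162 CPM after SB216763, and 18.4 to 19.8 CPM in ECs. Not every marker followed its sum. Myh11 and Cnn1 were higher in ECs than in controls, at an FDR under 0.01 and past a log2 fold change of 2. At that FDR, Des was higher after SB216763 than in controls. The osteoblast marker Alpl was lower in ECs than in controls but higher than in treated osteoblasts at that FDR. In bulk RNA, fewer cells of a kind and less RNA per cell cannot be told apart.

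Cholesterol synthesis genes fell steeply in osteoblasts treated with SB216763. Of the 34 genes, 28 were lower and 6 were higher than in control osteoblasts at an FDR under 0.01 by edgeR's quasi-likelihood test, beside 32.0% lower and 32.9% higher among all 15531 genes tested. With a log2 fold change of at least 2 asked for as well, 16 of the 34 were lower and 1 was higher, beside 5.84% and 3.81% of all genes. The median log2 fold change of the 34 was -1.92, beside 0.01 over all genes tested. Summed over the 34 genes, the level was 8036 ± 153 CPM in the controls, 2724 ± 43.2 CPM after SB216763, and 2259 ± 41.1 CPM in the ECs (SD, n = 3), and the libraries of the 3 groups did not overlap. These sums made up 0.744%, 0.291%, and 0.228% of all counts. The sums lean on a few abundant genes, and Scd2 alone had a mean of 2221 CPM in the controls.

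**Figure D1:**
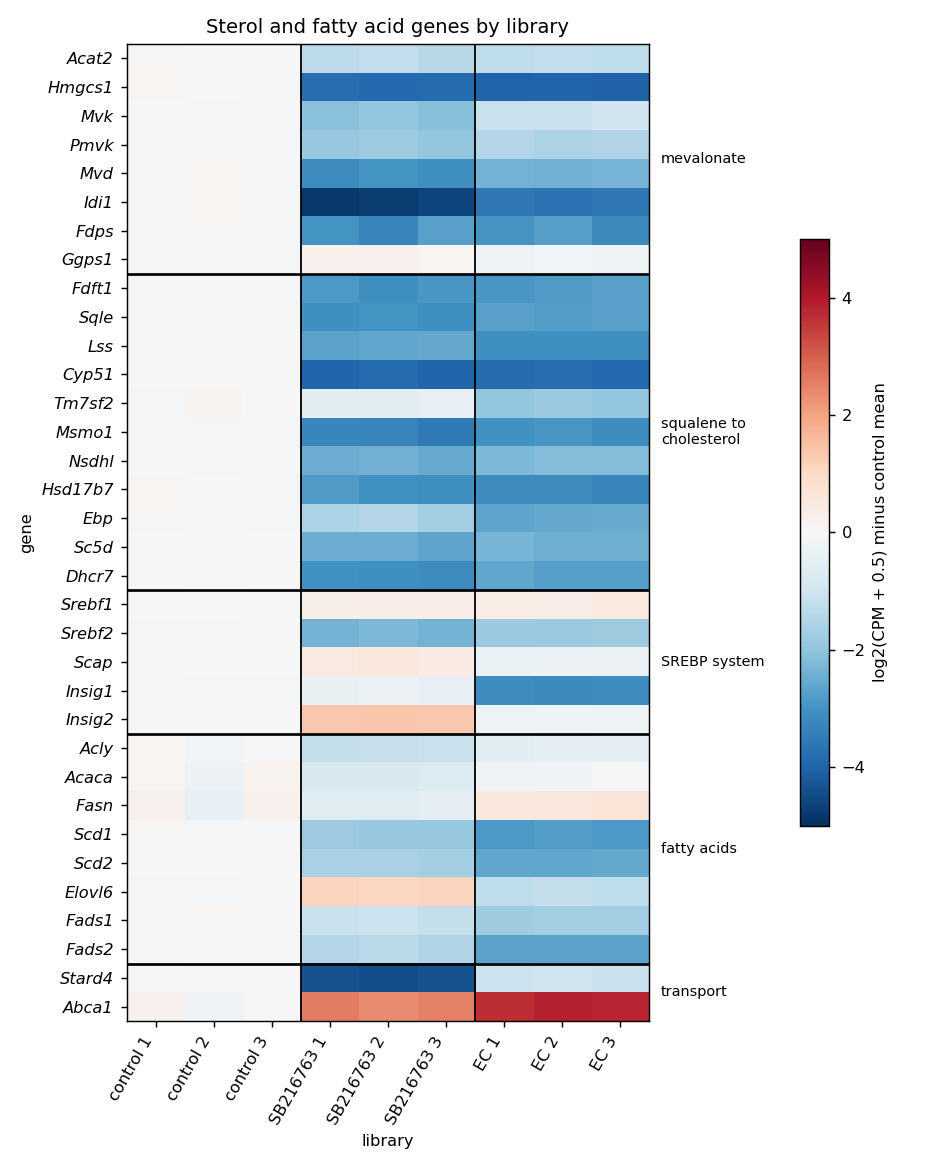
Each row is 1 of the 34 genes and each column 1 of the 9 libraries; color gives log2(CPM + 0.5) minus the mean of the 3 control libraries. The rows of the mevalonate and squalene steps are blue in all SB216763 and EC libraries except Ggps1, which is near the control level (log2 fold change 0.17 after SB216763 and -0.22 in ECs), and Abca1 is red in both groups.

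Nearly all of the mevalonate steps fell together. Of the 8 genes, 7 were lower after SB216763, 5 of them past a log2 fold change of 2, and the median was -2.62. Idi1 encodes the isomerase that makes the reactive isoprenoid unit used to build longer chains. It was at 83.3, 90.2, and 80.8 CPM in the control libraries, at 2.52, 2.66, and 3.05 CPM after SB216763, and at 6.60, 6.15, and 6.65 CPM in the ECs. The treated libraries were the lowest of the 3 groups, and the log2 fold change against control of -4.95 ± 0.074 (SE, FDR = 2.26e-17) was the largest fall among the 34 genes. Idi1 shares 17.7% of its 50-base words with 4 other genes, among which Gm13502 shares the most, and its counts are uncertain to that extent. Hmgcs1, the cytosolic synthase that makes HMG-CoA for this pathway, was at 687, 644, and 609 CPM in the controls and at 46.2, 43.6, and 44.1 CPM after SB216763. The EC libraries held 39.9, 41.3, and 38.3 CPM. Treated cells and ECs thus lay close together, 14.5-fold and 16.2-fold below the controls (log2 fold changes -3.86 ± 0.058 and -4.02 ± 0.058, FDR = 2.41e-17 and 2.15e-18).

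The enzymes between these steps fell by smaller amounts. Mvd, the decarboxylase that yields the first isoprenoid unit, went from a mean of 62.6 ± 3.61 CPM to 7.03 ± 0.486 CPM (log2 fold change -3.15). Mvk, mevalonate kinase, went from 62.9 ± 2.36 to 14.8 ± 1.21 CPM (-2.09), and Pmvk, the next kinase, from 30.3 ± 1.18 to 7.74 ± 0.393 CPM (-1.97). All 3 enzymes held intermediate levels in the ECs, with means of 11.7, 29.7, and 10.3 CPM. Acat2, a cytosolic thiolase ahead of Hmgcs1, fell to 34.2 ± 1.98 CPM from 85.1 ± 2.75 CPM (log2 fold change -1.32, FDR = 7.6e-13). Acat2 shares 39.1% of its 50-base words with the related gene Acat3, so its reads could have been split between them, and Acat3 was at 0.400, 0.182, and 1.95 CPM in the 3 groups.

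Fdps and Ggps1 stood apart within the mevalonate group. Fdps, the farnesyl diphosphate synthase, was at 5.43, 5.86, and 5.31 CPM in the controls and at 0.258, 0.104, and 0.408 CPM after SB216763, where it rests on few counts (log2 fold change -4.43 ± 0.25, FDR = 1.26e-10). Its level is low beside the enzymes around it, at 1.32 CPM per kilobase of exon in the controls against 24.2 for Idi1 and 34.6 for Fdft1. The gene shares 26.2% of its 50-base words with 8 other genes, and the one sharing most, Gm43738, overlaps its exons on the same strand and held at most 1 count in any library, so the counts of Fdps are uncertain. Ggps1, which makes the longer geranylgeranyl chain used to anchor proteins to membranes and lies off the route to cholesterol, was at 30.1, 32.4, and 29.9 CPM in the controls and at 35.5, 35.6, and 33.4 CPM after treatment. The rise was small (log2 fold change 0.17 ± 0.052, FDR = 0.00677) and did not pass an FDR of 0.01 in 7 of 15 other ways of running the test, with 0.037 as the highest FDR.

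All 11 enzymes from squalene to cholesterol were lower after SB216763, 9 of them past a log2 fold change of 2, and their median was -2.99. Cyp51, the lanosterol demethylase, changed the most. Its control libraries held 559, 557, and 540 CPM, the treated libraries 35.1, 38.0, and 34.04 CPM, and the EC libraries 37.6, 39.0, and 36.7 CPM. The treated and EC ranges overlapped, and both lay more than an order of magnitude under the controls (SB216763 against control -3.95 ± 0.054, FDR = 1.37e-17, a 15.4-fold fall). Msmo1, which helps to remove methyl groups from the sterol ring, was at 246, 262, and 240 CPM in the controls and 25.5, 24.5, and 21.2 CPM after treatment (-3.40 ± 0.069). It was the only other gene of these 11 to fall by more than 10-fold.

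The entry into this part of the pathway fell by similar amounts. Fdft1, squalene synthase, went from 146 ± 7.01 CPM to 18.5 ± 1.29 CPM (log2 fold change -2.99), and Sqle, the squalene epoxidase that starts ring closure, from 333 ± 7.66 to 39.9 ± 1.21 CPM (-3.06). Lss, the cyclase that makes lanosterol, went from 115 ± 2.62 to 18.2 ± 0.774 CPM (-2.65). The fold falls of these 3 genes were 7.92, 8.34, and 6.29. Fdft1 shares 9.38% of its 50-base words with Gm6781. Among the later steps, Dhcr7, which makes cholesterol from its last precursor, fell 8.81-fold from 103 ± 3.55 to 11.6 ± 0.543 CPM, Hsd17b7, a sterol ketone reductase, fell 8.03-fold from 170 ± 8.17 to 21.1 ± 1.92 CPM, and Sc5d, a desaturase, fell 5.86-fold from 163 ± 3.89 to 27.8 ± 1.84 CPM. Nsdhl, the decarboxylating dehydrogenase of the demethylation step, fell 5.78-fold from 63.9 ± 2.36 to 11.1 ± 0.439 CPM.

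Ebp and Tm7sf2 were the enzymes of this part that stayed within a log2 fold change of 2. Ebp, a sterol isomerase, was at 133, 131, and 121 CPM in the controls, 43.1, 46.2, and 38.4 CPM after SB216763 (log2 fold change -1.59 ± 0.062), and 20.4, 21.4, and 22.0 CPM in the ECs. Tm7sf2, which encodes a sterol reductase whose reaction the lamin B receptor can also carry out, was at 11.7 ± 0.995, 7.99 ± 0.51, and 2.72 ± 0.166 CPM in the 3 groups (SB216763 against control -0.55 ± 0.081, FDR = 1.45e-05). For both genes the treated osteoblasts lay between the controls and the ECs, with no overlap of libraries. Tm7sf2 shares exon sequence with Vps51 on the same strand, so its counts are uncertain, and Vps51 itself was at 25.6, 23.0, and 25.8 CPM.

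**Figure D2:**
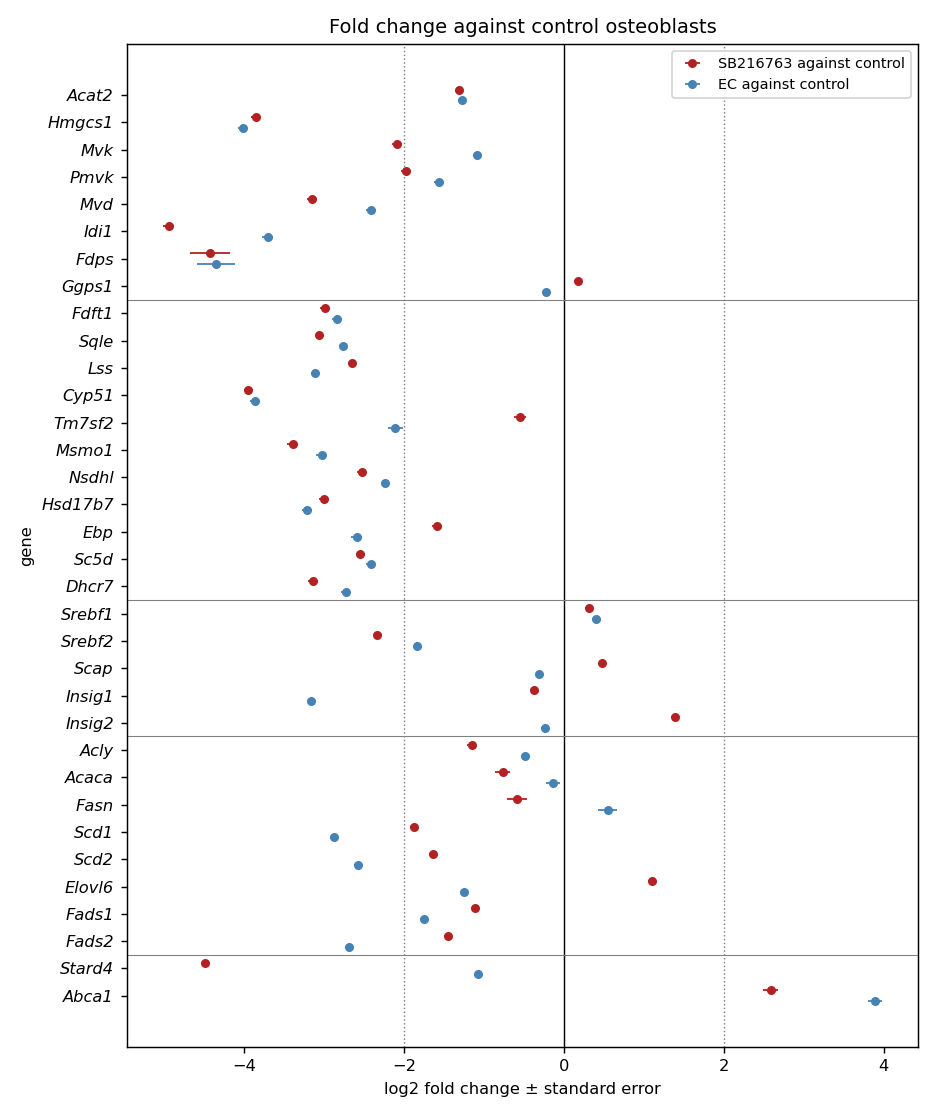
Points give the log2 fold change of each of the 34 genes against control osteoblasts, red for SB216763-treated osteoblasts and blue for ECs, with bars of 1 standard error (n = 3 libraries per group); dotted lines mark a log2 fold change of 2 in either direction, and horizontal lines separate the role groups. Red and blue points lie close together for Hmgcs1 (-3.86 and -4.02), Cyp51 (-3.95 and -3.87), and Fdft1 (-2.99 and -2.84) and far apart for Stard4 (-4.49 and -1.07), Insig1 (-0.37 and -3.16), and Elovl6 (1.10 and -1.25). Both points use the same control libraries.

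The promoters of the genes were looked at because so many of them moved together and because sterol control of this pathway is known to act at short elements close to the start site. RefSeq windows on GRCm38.p6, from 250 bases before to 50 bases after the start site, were found for 27 of the 34 genes, 35 windows in all with alternative starts. Windows for Fdps, Fdft1, Sqle, Scd1, Scd2, Fads1, and Stard4 were not used here. On both strands, the letters TCACNCCAC, a core of the sterol regulatory element bound by SREBP, were found in 1 of the 35 windows (2.86%), that of Hmgcs1, beside 1.24% of 32851 windows of all genes. The palindrome TCACGTGA, an E-box that SREBP1 can also bind, was found in 0 of the 35 and in 0.974% of all. The CCAAT box, the site of the NF-Y factor that works beside SREBP, was found in 22 of the 35 windows (62.9%), beside 37.4% of all. At least 2 CCAAT boxes were found in 12 windows (34.3%), beside 11.7% of all.

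The 200 bases before the start site are shown for 5 genes that fell after SB216763, namely Hmgcs1, the only gene with the element core, Mvk, the gene with the most CCAAT boxes, Mvd, Ebp, and Fasn, and for Insig2 and Abca1, which rose. Capitals mark TCACNCCAC and CCAAT, the latter also where it lies on the other strand and reads ATTGG. In Fasn, a pair of CCAAT boxes on opposite strands overlap. Insig2 has 3 windows, and the one with matches is shown.
Hmgcs1 (chr13:119690151-119690350, + strand): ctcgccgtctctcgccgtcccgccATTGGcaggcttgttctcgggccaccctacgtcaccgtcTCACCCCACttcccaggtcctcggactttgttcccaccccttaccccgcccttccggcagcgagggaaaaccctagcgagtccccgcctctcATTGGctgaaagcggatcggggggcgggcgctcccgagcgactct
Mvk (chr5:114444069-114444268, + strand): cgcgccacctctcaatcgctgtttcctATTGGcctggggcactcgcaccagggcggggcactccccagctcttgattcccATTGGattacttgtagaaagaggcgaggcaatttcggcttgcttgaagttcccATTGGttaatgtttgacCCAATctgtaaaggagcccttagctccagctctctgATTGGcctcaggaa
Mvd (chr8:122443423-122443622, - strand): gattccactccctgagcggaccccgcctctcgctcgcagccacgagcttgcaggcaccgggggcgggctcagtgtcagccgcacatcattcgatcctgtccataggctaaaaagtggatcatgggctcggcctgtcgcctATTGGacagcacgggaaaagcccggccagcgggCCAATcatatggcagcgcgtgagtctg
Ebp (chrX:8193513-8193712, - strand): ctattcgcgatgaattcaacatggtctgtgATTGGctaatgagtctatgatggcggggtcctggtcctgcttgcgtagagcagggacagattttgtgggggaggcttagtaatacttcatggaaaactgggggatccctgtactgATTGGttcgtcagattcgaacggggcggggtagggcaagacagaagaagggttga
Fasn (chr11:120824548-120824747, - strand): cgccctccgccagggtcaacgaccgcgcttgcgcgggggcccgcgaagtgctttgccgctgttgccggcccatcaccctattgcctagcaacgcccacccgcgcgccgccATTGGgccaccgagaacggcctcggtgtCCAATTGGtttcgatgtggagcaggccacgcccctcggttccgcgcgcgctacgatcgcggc
Insig2 (chr1:121332590-121332789, - strand): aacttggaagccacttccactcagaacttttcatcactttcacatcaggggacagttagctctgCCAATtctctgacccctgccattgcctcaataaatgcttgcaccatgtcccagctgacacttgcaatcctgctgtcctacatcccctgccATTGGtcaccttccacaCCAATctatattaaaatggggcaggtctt
Abca1 (chr4:53159896-53160095, - strand): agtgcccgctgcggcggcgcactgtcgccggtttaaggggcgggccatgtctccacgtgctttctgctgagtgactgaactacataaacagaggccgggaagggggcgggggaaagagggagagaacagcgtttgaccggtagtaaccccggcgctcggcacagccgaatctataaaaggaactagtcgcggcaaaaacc
In Hmgcs1 the element core begins at -137 from the start site, between CCAAT boxes on the other strand at -176 and -45. Mvk has 5 CCAAT boxes between -173 and -14. Insig2, which rose, has 3, and Abca1 has none. The genes shown do not stand for the whole set. Among all genes with a window, Acat2, Acaca, and Fads2, which fell, and Scap, Elovl6, and Abca1, which rose, had no match. Ggps1, Srebf1, and Insig2, which rose, had CCAAT boxes. A match of letters is a description of the sequence, and elements that differ by a base from the letters searched, as many working sterol elements do, are not counted.

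**Figure D3:**
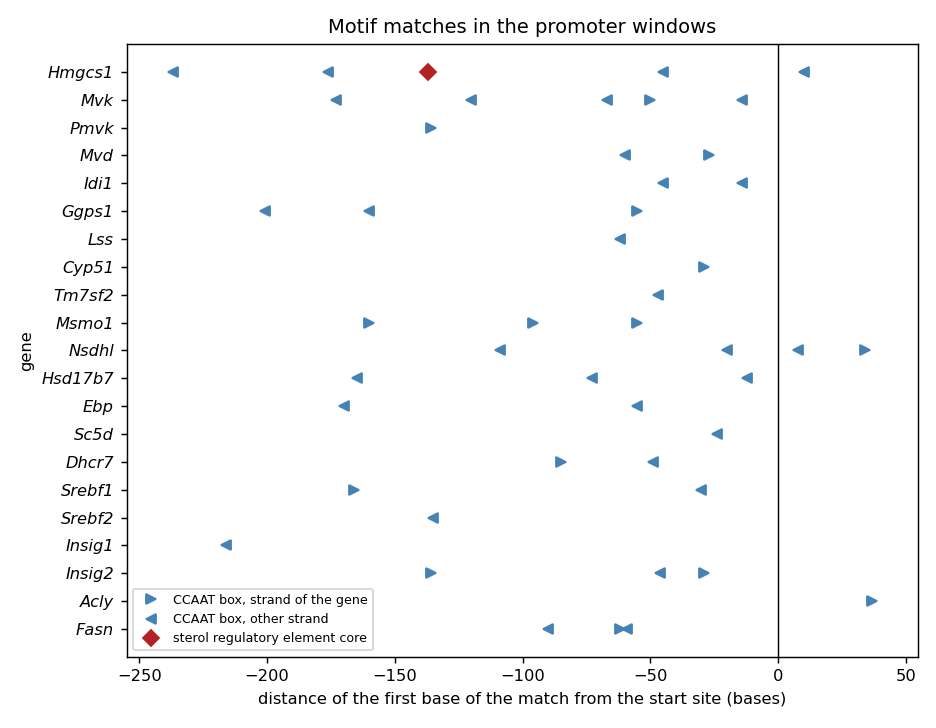
Each row is 1 of the 21 genes with a match in a promoter window, and symbols give the position of the first base of the match relative to the start site, in bases; triangles are CCAAT boxes pointing along the strand they lie on and the diamond is the sterol regulatory element core. Most triangles lie upstream of the start site, and the diamond is at -137 in Hmgcs1.

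The 5 genes of the SREBP system did not move as a block. Srebf2 and Insig1 were lower and Srebf1, Scap, and Insig2 higher after SB216763, with a median log2 fold change of 0.31. Srebf2, which encodes SREBP2, was at 392, 357, and 376 CPM in the controls, 72.5, 78.1, and 72.6 CPM after SB216763, and 104, 102, and 108 CPM in the ECs. It fell 5.04-fold (log2 fold change -2.33 ± 0.051, FDR = 1.23e-15), and it was the only gene of the 5 past a log2 fold change of 2. Srebf1, which encodes SREBP1, was at 60.7, 57.9, and 59.4 CPM in the controls and rose a little to 72.2, 74.6, and 74.2 CPM (0.31 ± 0.048, FDR = 2.45e-05). In the controls Srebf2 was well above Srebf1 per kilobase of exon, at 52.2 against 10.5 CPM per kilobase. After SB216763 the levels were 10.4 for Srebf2 and 13.1 for Srebf1, and in the ECs 14.6 and 13.9.

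The genes of the retention complex moved in different directions. Scap, the escort protein that carries SREBP to the Golgi, was at 66.8, 67.7, and 67.0 CPM in the controls and 91.7, 98.7, and 90.6 CPM after SB216763 (log2 fold change 0.48 ± 0.044, FDR = 6.13e-08). Insig1 and Insig2 both encode proteins that hold SCAP back, and Insig1 is itself a known SREBP target. Insig1 was at 355, 377, and 346 CPM in the controls and 277, 289, and 267 CPM after treatment, a fall of only 1.29-fold (-0.37 ± 0.048, FDR = 3.47e-06), whereas the EC libraries held 41.2, 39.0, and 40.3 CPM. Insig2 was at 40.3, 42.2, and 41.4 CPM in the controls and rose 2.61-fold to 107, 110, and 107 CPM (1.39 ± 0.041, FDR = 5.56e-14), with 34.7, 35.8, and 34.4 CPM in the ECs. Insig1 thus stayed near its control level after treatment, far above the ECs. Per kilobase of exon it was the fourth most abundant of the 34 genes in the controls and the second after SB216763, at 116 and 89.7 CPM per kilobase.

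Fatty acid genes fell less than the sterol enzymes. Of 8 genes, 7 were lower and 1 was higher after SB216763, none passed a log2 fold change of 2, and the median was -1.14. The desaturases Scd1 and Scd2, which put the first double bond into saturated fatty acids, fell the most. Scd1 was at 218, 199, and 205 CPM in the controls, 58.6, 56.0, and 55.4 CPM after SB216763 (log2 fold change -1.87 ± 0.048, FDR = 8.58e-15), and 28.1, 29.3, and 27.6 CPM in the ECs. Scd2 was at 2237, 2181, and 2244 CPM in the controls, 726, 729, and 689 CPM after SB216763 (-1.64 ± 0.049), and 369, 371, and 372 CPM in the ECs. Per kilobase of exon, Scd2 was the most abundant of the 34 genes in every group. For Scd1 and Scd2 the treated cells lay between the controls and the ECs. Fads1 and Fads2, the desaturases of long polyunsaturated fatty acids, behaved alike in the order of the groups, with means of 445 ± 10.7, 205 ± 8.03, and 132 ± 1.49 CPM for Fads1 and 199 ± 7.04, 73.0 ± 4.08, and 31.0 ± 0.0852 CPM for Fads2 in control, treated, and EC libraries.

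The enzymes that make palmitate formed a different pattern. Acly, which supplies cytosolic acetyl-CoA from citrate, was at 402, 345, and 383 CPM in the controls, 166, 170, and 172 CPM after SB216763 (log2 fold change -1.15 ± 0.054), and 263, 268, and 277 CPM in the ECs. Acaca, the acetyl-CoA carboxylase, was at 107, 82.6, and 113 CPM in the controls, 57.4, 57.6, and 62.7 CPM after SB216763 (-0.77 ± 0.090, FDR = 1.15e-06), and 87.6, 89.6, and 97.3 CPM in the ECs. Fasn, fatty acid synthase, was at 338, 216, and 336 CPM in the controls, 189, 190, and 214 CPM after SB216763, and 416, 428, and 458 CPM in the ECs. For these 3 genes the treated osteoblasts were the lowest group. Control replicate 2 was low for all 3, and for Fasn it nearly reached the treated libraries. The fall of Fasn (-0.59 ± 0.12, FDR = 4.44e-04) lost its call when libraries were scaled by total counts only (-0.38, FDR = 0.0124). Acaca shares 30.4% of its 50-base words with other genes, among which Gm5182 shares the most, and its counts are uncertain to that extent.

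Elovl6, the elongase that extends palmitate to stearate, went the other way from the rest of the fatty acid group. It was at 87.5, 81.5, and 86.1 CPM in the controls, rose to 184, 176, and 187 CPM after SB216763 (2.14-fold, log2 fold change 1.10 ± 0.047, FDR = 4.4e-12), and was lowest in the ECs at 34.6, 37.3, and 35.4 CPM. No libraries of the 3 groups overlapped.

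The sterol transport genes moved in opposite directions. Stard4, a carrier that moves cholesterol between membranes inside the cell and a known SREBP target, was at 157, 154, and 151 CPM in the controls, 6.97, 6.65, and 6.97 CPM after SB216763, and 73.0, 76.5, and 70.3 CPM in the ECs. The fall after treatment was 22.5-fold (log2 fold change -4.49 ± 0.055, FDR = 8.6e-18), whereas the ECs were 2.10-fold below the controls. Abca1, the transporter that exports cholesterol to lipoproteins and a known LXR target, was at 5.37, 3.91, and 4.45 CPM in the controls, 29.1, 25.4, and 28.8 CPM after SB216763, and 65.1, 71.2, and 70.2 CPM in the ECs. It rose 6.0-fold after treatment (2.58 ± 0.093, FDR = 5.98e-13), the only rise past a log2 fold change of 2 among the 34, and the ECs were 14.9-fold above the controls.

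**Figure D4:**
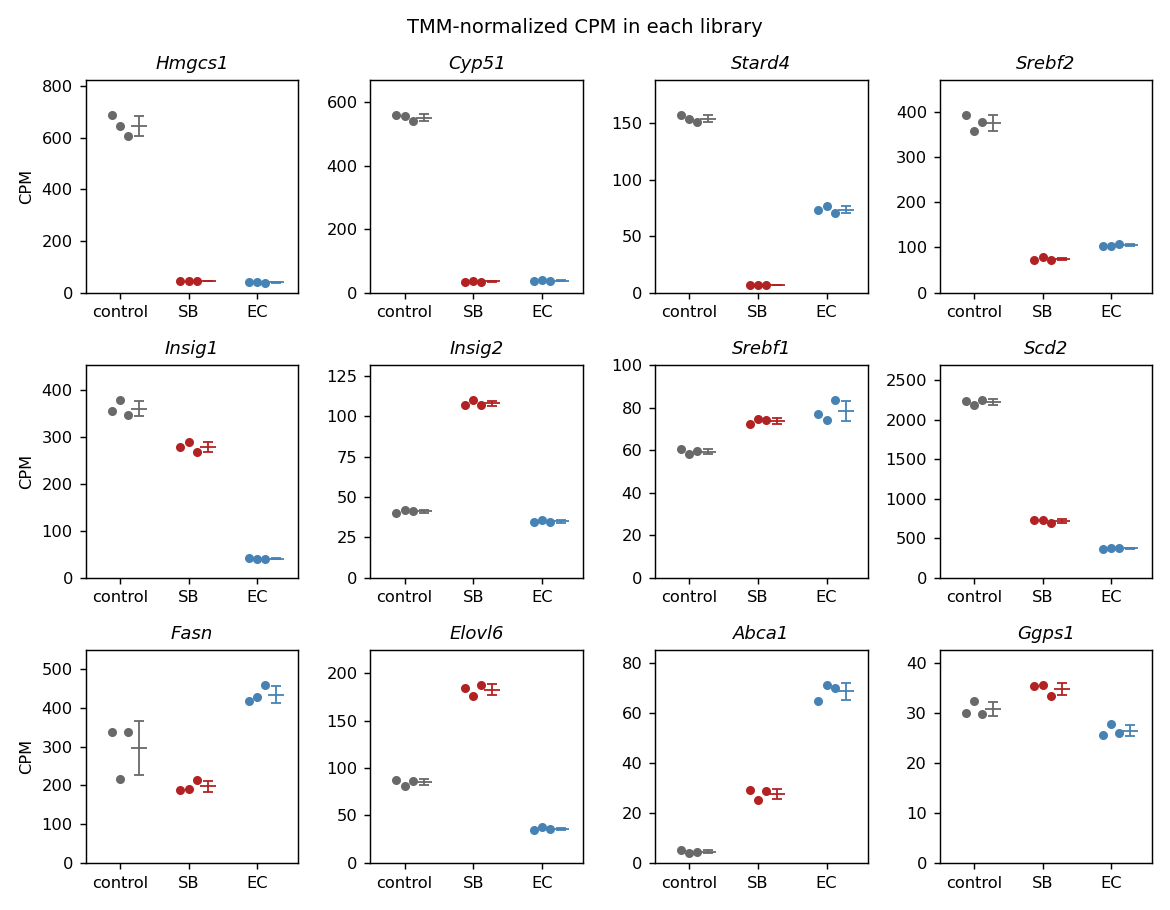
TMM-normalized CPM of 12 of the genes, with 1 point per library and a bar beside the points at the mean ± SD (n = 3), for control osteoblasts (gray), SB216763-treated osteoblasts (red), and ECs (blue); each panel has its own axis, starting at 0. Hmgcs1, Cyp51, and Srebf2 are high only in the controls, Insig2 and Elovl6 are highest after SB216763, and the points of Fasn show control replicate 2 (216 CPM) below the other controls (338 and 336 CPM).

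Compared with control osteoblasts, the ECs had low levels of the same pathway. The ECs were isolated from lung by FACS and the osteoblasts are a cell line, so cell type, tissue, and handling cannot be told apart here. At an FDR under 0.01, 30 of the 34 genes were lower and 3 were higher in ECs, beside 37.9% lower and 39.0% higher among all genes tested. With a log2 fold change of at least 2, 19 were lower and 1 was higher, beside 9.87% and 13.5%. The median log2 fold change of the 34 genes was -2.33, beside 0.01 over all genes. All 8 mevalonate genes and all 11 genes from squalene to cholesterol were lower, the latter all past a log2 fold change of 2. With libraries scaled by total counts only, Ggps1 (-0.10, FDR = 0.0867) and Insig2 (-0.12, FDR = 0.0171) lost their calls as lower in ECs. The 3 higher genes were Abca1 (3.89 ± 0.090), Fasn (0.55 ± 0.12, FDR = 6.13e-04), and Srebf1 (0.40 ± 0.048), and Acaca was not called (-0.14 ± 0.088, FDR = 0.15). Without control replicate 2 Acaca was lower in ECs (-0.28, FDR = 7.7e-05). This comparison and the one of treated with control osteoblasts share their 3 control libraries, so their values are given side by side and not as independent results.

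ECs and SB216763-treated osteoblasts were then compared directly, as a contrast within the same fit of all 9 libraries. The controls thus still entered the gene filter, the scaling, and the estimate of spread. At an FDR under 0.01, 14 of the 34 genes were higher in ECs, 13 were lower, and 7 were not called, beside 40.3% higher and 38.3% lower among all genes, so the counts of the 34 were near the background. With a log2 fold change of at least 2, 1 was higher and 2 were lower, beside 15.0% and 10.3% of all genes. The median was 0.08, beside 0.02 over all genes. The 7 genes that were not called were Acat2, Hmgcs1, Fdps, Fdft1, Cyp51, Sc5d, and Srebf1, and their log2 fold changes ran from -0.16 for Hmgcs1 to 0.15 for Fdft1. A missed call does not show equal levels. The standard errors were 0.055 for Hmgcs1 and 0.067 for Fdft1 but 0.43 for Fdps, whose difference is poorly known. Fdps had 4 to 15 counts in the treated libraries and 7 to 13 in the ECs. It passed the filter only through the controls (153 to 345 counts), so its missed call says nothing about its levels. Hmgcs1 was 1.12-fold lower in ECs at an FDR of 0.0119, just outside the threshold. In a fit of only the 2 groups compared, Hmgcs1 was called lower in ECs (log2 fold change -0.20, FDR = 6.5e-04).

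Stard4, Insig1, and Elovl6, which differed most between ECs and treated osteoblasts, are not enzymes of the sterol ring. Stard4 was 10.7-fold higher in ECs (log2 fold change 3.42 ± 0.055, FDR = 8.27e-18). Insig1 was 6.91-fold lower (-2.79 ± 0.053, FDR = 5.5e-17) and Elovl6 5.10-fold lower (-2.35 ± 0.049). Next came Insig2 (-1.63), Tm7sf2 (-1.56), Abca1 (1.31), Idi1 (1.24), Fads2 (-1.24), and Fasn (1.13). Among the 8 fatty acid genes, the palmitate enzymes Acly, Acaca, and Fasn were higher in ECs and the 5 desaturase and elongase genes were lower. Srebf2 was 1.41-fold higher in ECs (0.49 ± 0.050, FDR = 1.32e-07), and Scap was 1.73-fold lower (-0.79 ± 0.044).

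Other genes of the pathway were read from 4 further lists, 80 genes of which 76 were tested. Among 15 tested sterol and isoprenoid enzymes, 5 were lower and 5 higher after SB216763 (33.3% each), close to the 32.0% and 32.9% of all genes. The median log2 fold change was -0.17, and none passed a log2 fold change of 2. The 3 largest changes were all falls. Lbr, the lamin B receptor, which also carries the sterol reductase activity that it shares with Tm7sf2, was at 78.2, 79.9, and 80.1 CPM in the controls, 23.4, 22.3, and 22.7 CPM after SB216763 (-1.80 ± 0.046, FDR = 7.17e-15), and 69.7, 66.9, and 71.9 CPM in the ECs. The treated osteoblasts were lowest, and the ECs lay nearer to the controls. Aacs, which activates acetoacetate for lipid synthesis, fell from 128 ± 3.08 to 47.3 ± 2.58 CPM (-1.43 ± 0.050), and Erg28, a scaffold of sterol demethylation enzymes, fell from 46.7 ± 3.21 to 18.7 ± 1.34 CPM (-1.32 ± 0.066).

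Of 13 tested genes that control SREBP and LXR, 8 were higher (61.5%) and 4 lower (30.8%), beside 32.9% and 32.0% of all genes. The median was 0.44, and none passed a log2 fold change of 2. The 3 largest changes were in Paqr3, a Golgi anchor of the SCAP complex (7.87 ± 0.348 to 3.20 ± 0.224 CPM, log2 fold change -1.30), in Nr1h3, which encodes LXRα (0.255 ± 0.112 to 0.570 ± 0.175 CPM, 1.14), and in Mid1ip1, a partner of acetyl-CoA carboxylase (25.3 ± 1.16 to 14.4 ± 1.19 CPM, -0.80). Nr1h3 was under 1 CPM in every library and passed its test narrowly (FDR = 0.00776).

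Among 21 genes of sterol uptake, efflux, and esterification, 9 were higher (42.9%) and 8 lower (38.1%), beside 32.9% and 32.0% of all genes, with a median of 0.14. Gramd1b, which moves cholesterol from the plasma membrane to the endoplasmic reticulum, rose from 13.1 ± 0.819 to 60.5 ± 1.55 CPM (log2 fold change 2.20 ± 0.053). Cyp27a1, a sterol hydroxylase, rose from 0.113 ± 0.0383 to 0.514 ± 0.127 CPM (2.06 ± 0.34) and averaged 4.21 ± 0.511 CPM in ECs. Soat2, a cholesterol-esterifying enzyme, fell from 4.82 ± 0.213 to 0.699 ± 0.175 CPM (-2.77 ± 0.16), and Ch25h, the cholesterol 25-hydroxylase, fell from 3.03 ± 0.254 to 0.415 ± 0.178 CPM (-2.85 ± 0.19). Cyp27a1, Soat2, and Ch25h were low in all osteoblast libraries.

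Among 27 tested genes of fatty acid and lipid handling, 17 were lower (63.0%) and 8 higher (29.6%) after SB216763, beside 32.0% and 32.9% of all genes, with a median of -0.48. The pair past a log2 fold change of 2 were both higher. Lpin1, a phosphatidate phosphatase and coactivator, was at 12.8, 10.8, and 13.1 CPM in the controls and at 67.6, 68.0, and 66.8 CPM after SB216763 (5.55-fold, log2 fold change 2.47 ± 0.061, FDR = 5.73e-15). Cpt1a, the gatekeeper of fatty acid oxidation in mitochondria, was at 58.0, 53.9, and 55.3 CPM in the controls, 230, 233, and 232 CPM after SB216763 (4.16-fold, 2.06 ± 0.045), and 263, 270, and 277 CPM in the ECs. Treated osteoblasts were thus near the EC level for Cpt1a, though Cpt1a was still called higher in ECs than in treated cells (FDR under 0.01). Lpin1 was lower in ECs than in treated cells, with 24.8 ± 0.906 CPM.

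**Figure D5:**
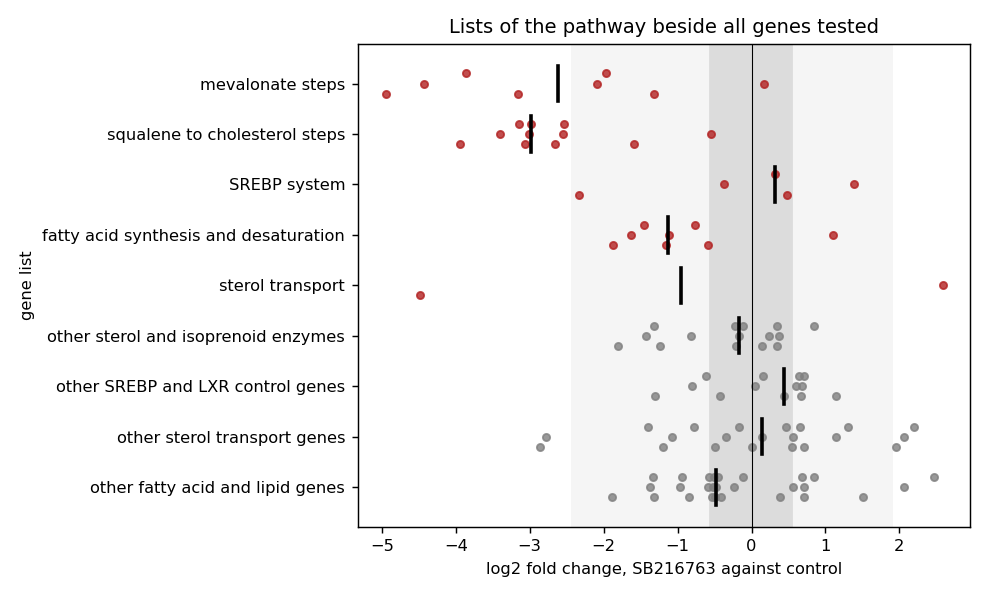
Each point is the log2 fold change of a tested gene between SB216763-treated and control osteoblasts, red for the 34 genes by role and gray for the other lists, with a black bar at the median of each list (points are spread vertically for legibility); shading covers the 5th to 95th percentile (-2.43 to 1.90) and, darker, the 25th to 75th percentile (-0.56 to 0.55) of all 15531 genes tested. The medians of the mevalonate steps (-2.62) and of the steps from squalene to cholesterol (-2.99) are the lowest of the 9 lists.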

How the data were processed

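RNA-Seq libraries of control MC3T3-E1 osteoblasts, osteoblasts treated with SB216763, and mouse pulmonary ECs were examined, 3 of each. The authors aligned and counted the reads with STAR (2.5.3a on GRCm38, per the submitters' processing notes) and deposited whole-number counts per gene for 50686 genes, without normalization. The annotation and strand setting are not given in the sources used here. If strand was not used, reads of genes overlapping on opposite strands, which touch Hmgcs1, Idi1, Ggps1, Fdft1, Lss, Cyp51, Srebf1, Scap, and Elovl6, cannot be told apart. The labels gave all groups.

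The counts were tested in R 4.3.3 with edgeR 4.0.16 (filterByExpr, TMM, quasi-likelihood fit of all 9 libraries, Benjamini-Hochberg adjustment over 15531 genes, prior count 0.125). Standard errors were derived from the F statistic. A gene was called at an FDR under 0.01, or at that with a log2 fold change of 2 or more in either direction. Levels per kilobase used the union of exons on GRCm38. Sequence sharing was counted in 50-base words of the exons of each gene. RefSeq gave the promoter windows.

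The 34 genes, the lists, and the tests were chosen with earlier results of these data known. All 34 genes are named, with full statistics for the largest changes in each role group and for the SREBP regulators. Of the other 4 lists, the genes past a log2 fold change of 2 are named, or the 3 with the largest change where none passed. The result for 1 further gene is not reported here. Replicate numbers were not used to pair libraries, since the deviations of same-numbered libraries were at most weakly correlated (-0.039 to 0.12).

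The alternatives were RLE, upper-quartile, and total-count scaling, limma-voom (limma 3.58.1), DESeq2 1.42.0, other filters, fold and FDR thresholds, fits of only the groups compared, a replicate block, and leaving out each library. Tested on simulated data of 15531 genes for SB216763 against control, the quasi-likelihood test recovered 100 of 100 genes set to a log2 change of 3 and 100 of 100 set to 1. There was 1 false call among 14894 unchanged genes tested. The changed genes were drawn only from genes above a minimum level, and every gene was given the same spread. The simulation therefore does not cover genes with few counts or with a larger spread.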

Additional observations from a re-analysis of the deposited data

How the results depend on the processing

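The direction of change between SB216763-treated and control osteoblasts held for each of the 34 genes under all 15 alternatives, and 502 of 510 combinations of gene and alternative also stayed on the same side of the FDR threshold. The other 8 were 7 for Ggps1 and 1 for Fasn. The counterpart was 507 of 510 for ECs against control osteoblasts and 493 of 509 for ECs against treated osteoblasts, where Fdps could not be tested without the control libraries. Scaling by total counts only moved the median of all genes from 0.01 to 0.22 for SB216763 against control, from 0.01 to 0.13 for ECs against control, and from 0.02 to -0.06 for ECs against treated cells, and moved the median of the 34 genes to -1.72, -2.20, and 0.0058. It also turned the direction of 2 uncalled genes between ECs and treated cells, Acat2 (-0.043) and Fdps (-0.0042). With a log2 fold change of at least 1 in place of 2, 3 genes in place of 1 were higher and 24 in place of 16 were lower after SB216763, 26 in place of 19 were lower in ECs than in controls, and between ECs and treated cells 5 in place of 1 were higher and 6 in place of 2 were lower. Leaving out 1 library at a time gave between -0.020 and 0.068 for Acat2 and between -0.32 and 0.57 for Fdps between ECs and treated cells, both uncalled throughout. The sign of Fdps turned without SB216763 replicate 2 (-0.32) or EC replicate 2 (-0.22), and that of Acat2 without SB216763 replicate 3 (-0.020). Hsd17b7 between ECs and treated cells lost its call under 6 alternatives, and Hmgcs1 gained one under 5. The cause was not tested. With the replicate block, the median of the 34 genes for SB216763 against control was -1.92, with 28 lower and 6 higher as before, and the block changed 1 call, that of Hmgcs1 between ECs and treated cells (FDR = 0.00543). In 9 comparisons of a control or SB216763 library with the libraries of another group, 3 had the highest correlation at the same replicate number. Between control and SB216763, the correlations at the same number were 0.0029 for replicate 1, 0.12 for replicate 2, and 0.081 for replicate 3. Depth limits Fdps, Nr1h3, and Cyp27a1, which rest on few counts.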
